A study of Mus musculus with 8 samples.

Results

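Chemokines are small secreted proteins that guide leukocytes into and within tissues, and their receptors are G protein-coupled receptors on the migrating cells. The genes of both families were taken from a colon RNA-seq table by symbol (Ccl, Cxcl, Ccr, Cxcr, Xcl, Xcr or Ackr with a number, Cx3cl1 and Cx3cr1), when protein coding and above 0 in at least 6 of 8 libraries. Of 26008 genes in the table, 48 met this rule, namely 27 ligands, 20 receptors and the receptor-like gene Ccr1l1. A further 5 protein-coding genes of the families were above 0 in fewer libraries, and Ccl5 was not analysed here. Among the 48 genes, 41 reached a mean of 10 normalized counts over the 8 mice and were tested.

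In the colon, ligands of different classes have different sources. Epithelial cells release Ccl20, Ccl25, Ccl28 and Cx3cl1, stromal cells release Cxcl12, and lymphoid follicles are organized around Cxcl13 and its receptor Cxcr5. During inflammation, Cxcl1 and Cxcl5 attract neutrophils, Ccl2 attracts monocytes, and Cxcl9 and Cxcl10 attract activated T lymphocytes through Cxcr3. Atypical receptors bind chemokines without G protein signalling and remove or transport them.

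The study asked whether enkephalins made by immune cells act on the gut in the absence of disease. Male C57BL/6JRj recipients aged 7 weeks were lethally irradiated and given bone marrow of male donors aged 9 to 11 weeks, either penk-/- (proenkephalin knockout, strain B6.129-Penk-rstm1Pig/J) or penk+/+. Colonic biopsies were sequenced from 4 penk-/- and 4 penk+/+ chimeras, examined from 18 weeks after engraftment. No colitis was induced in either group.

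All recipients were wild-type, so the genotype is that of the hematopoietic cells only, and the nonhematopoietic cells of every colon carried an intact Penk. Normalized Penk counts averaged 528 ± 67.5 with penk-/- marrow and 541 ± 73.2 with penk+/+ marrow (SD, n = 4 each), with a log2 fold change of -0.03 ± 0.12 (SE). Whole-tissue Penk is therefore no check of the labels.

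Libraries held about 33122600 to 50677000 counted reads. Epithelial markers (Krt8, Epcam, Muc2) and smooth muscle markers (Myh11, Des) were abundant in all 8 mice. A set of 3 genes of male accessory glands (Pbsn, Tgm4 and Msmb) summed to 209863 normalized counts in penk-/- replicate 3 and 217825 in penk+/+ replicate 4, against 54.2 to 27526 in the other 6 mice. B cell markers (Cd79a, Cd79b, Ms4a1 and Pax5) summed to 1124 in penk-/- replicate 4 and 1037 in penk+/+ replicate 2, against 176 to 389 in the other 6. The highest sums of each list thus occurred in 1 mouse of each genotype. Accessory gland genes were not confined to those mice, with sums of 27526 in penk+/+ replicate 1 and 16973 in penk-/- replicate 2, against 93.9 in penk-/- replicate 1.

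A group of 4 ligands accounted for 72.9% of the summed level of the 48 genes, with levels expressed as the mean normalized count per kb of transcript over the 8 mice. Ccl6, known as a CC ligand of mouse myeloid cells, was first at 5202 per kb. Its values did not rise with macrophage markers across mice (r = -0.374), and its cell source in this tissue was not tested. Ccl28, which draws IgA plasma cells through Ccr10, was at 2736 per kb. Ccl21a, the lymphatic ligand of Ccr7, was at 2091 per kb, and Cx3cl1, the membrane-bound ligand of Cx3cr1, at 1617 per kb. Reads of Ccl21a could be shared with near-identical copies of this gene in the mouse genome, so its value is uncertain.

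The next ligands were far lower. Ccl25 was at 432 per kb, Cxcl12 at 413, Ccl20 at 410, Ccl11 at 374 and Ccl8 at 371, neighbours in this order differing by less than the spread among mice. Ackr3, the atypical receptor for Cxcl12, had the highest level among receptors (250 per kb), followed by Cx3cr1 (113), Ccr1 (109) and Ccr2 (103), the last 3 being equally close. In all, 18 genes exceeded 100 per kb and 12 were below 10 per kb. These 12 included Cxcl9, Cxcl11, Ccr4, Ccr7 and Xcr1. Among inflammatory ligands, Cxcl2 and Ccl4 were low, with 3.03 to 11.2 and 0 to 3.80 normalized counts. Others were higher, with means of 239 for Cxcl5, 191 for Ccl8, 74.3 for Ccl2 and 47.2 for Cxcl1.

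**Figure D1:**
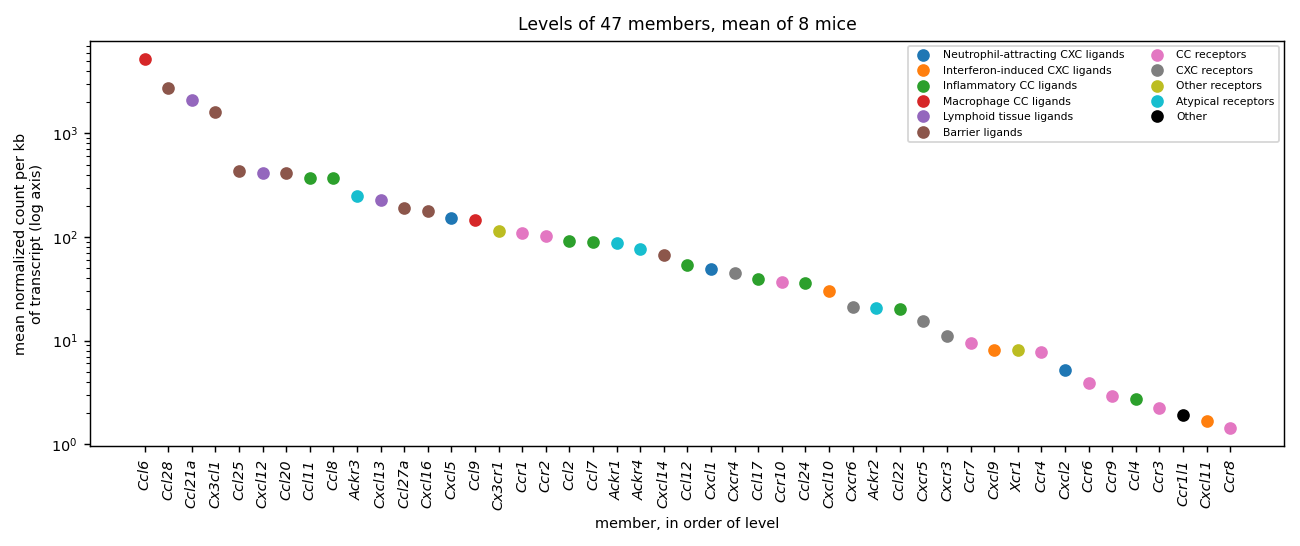
Mean normalized count per kb of transcript (log axis) for 47 chemokine and receptor genes over 8 mice, in order of level and coloured by role group. Ccl6, Ccl28, Ccl21a and Cx3cl1 stand above the rest at 1617 per kb or more.

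No chemokine or receptor gene passed the test between penk-/- and penk+/+ chimeras. The smallest adjusted p among the 41 genes was 0.425 (limma, adjusted over the 19127 genes tested), and 0.0% of the 19127 genes passed an adjusted p of 0.05 (smallest 0.132). At an unadjusted p below 0.05, 4 of 41 genes were called (9.76%), against 9.63% of all genes tested. They were Cxcl1, Cxcl5, Ccl20 and Ccr4, each with a lower mean in penk-/- chimeras, a direction that held for 5.33% of all genes. The 4 penk-/- values did not overlap the 4 penk+/+ values for 1 gene, Cxcl5 (2.44% of the 41), against 5.63% of all genes, of which 2.74% were lower and 2.89% higher in penk-/- chimeras. None of the 41 was called in the higher direction, against 4.3% of all genes. The count of 4 became 7 without penk-/- replicate 1, where that of all genes went from 1842 to 2223, and 2 without penk-/- replicate 2, where it went to 1477. Cxcl1 and Cxcl5 were called in each of these fits. Ccr4 was not called without penk-/- replicate 1 or 2 or without penk+/+ replicate 1, 2 or 3, and Ccl20 was not called without penk-/- replicate 2.

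Most of the estimated fold changes were small. The median log2 fold change (penk-/- minus penk+/+) was 0.02 over the 41 genes and 0.01 over all genes tested. It was within 0.25 of 0 for 23 genes, beyond 0.5 for 8 genes and beyond 1 for 1 gene, Cxcr5. For 30 genes the whole 95% interval lay within a 2-fold change in either direction (log2 of 1), and for the other 11 it did not. A difference of that size could not be set aside for those 11 genes with 4 mice per genotype. Ligands had 9 positive and 15 negative fold changes (median -0.05), and receptors 12 positive and 5 negative (median 0.12). All genes tested had 9780 positive and 9347 negative fold changes. Signs of genes measured in the same mice are not independent of each other.

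**Figure D2:**
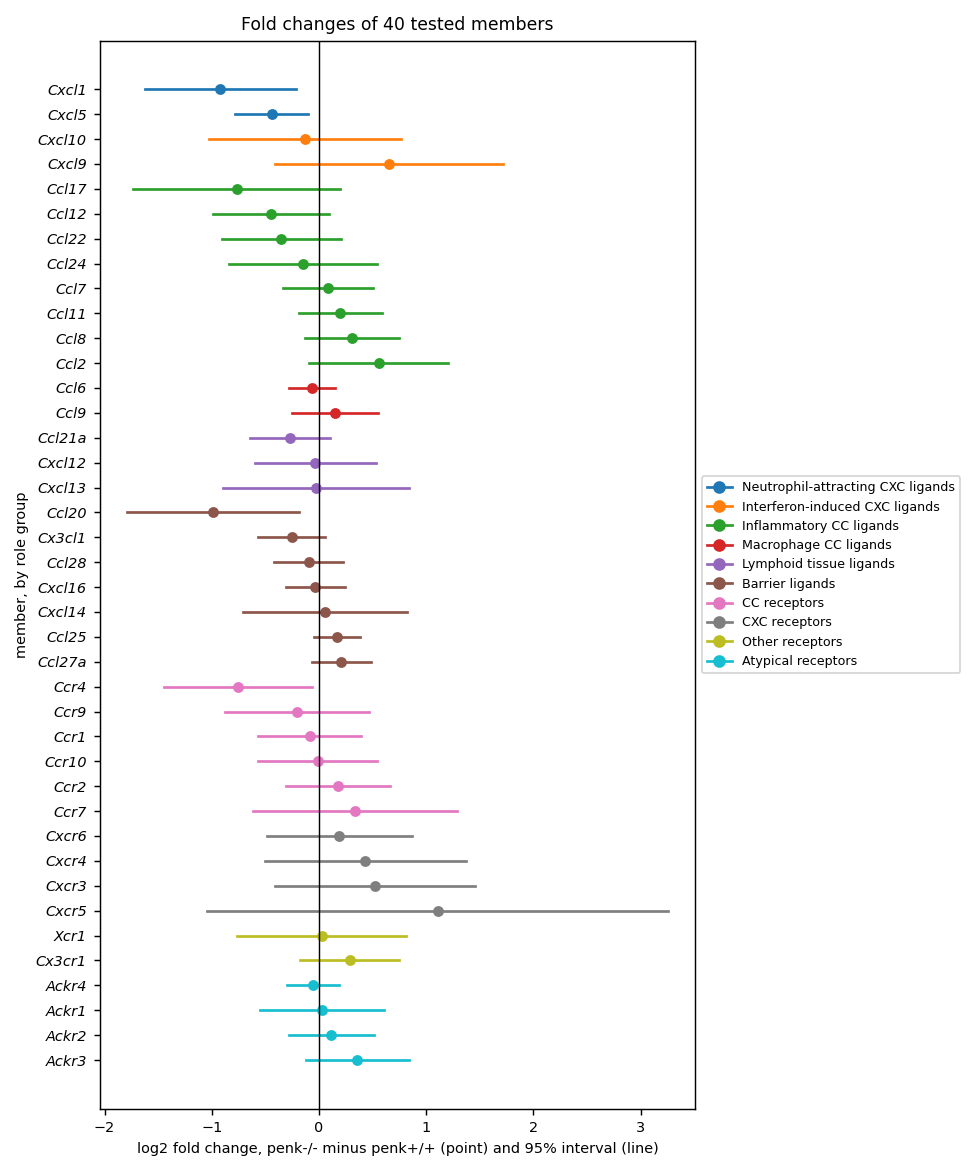
Log2 fold change of penk-/- over penk+/+ chimeras (point) with its 95% interval (line) from limma, for 40 tested genes grouped by role. The intervals of Cxcl1, Cxcl5, Ccl20 and Ccr4 lie below 0 before adjustment and those of the other 36 genes cross it, the widest being that of Cxcr5.

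Neutrophil-attracting CXC ligands act on Cxcr2 and are released by epithelium, macrophages and fibroblasts. Both tested genes of this group had lower means in penk-/- chimeras without passing the adjusted test. Cxcl1 (ENSMUSG00000029380, GRCm39 chr5:91039094-91040974) was at 74.7, 59.9, 74.6 and 37.7 normalized counts in penk+/+ replicates 1 to 4, and at 50.5, 20.6, 33.4 and 26.5 in penk-/- replicates 1 to 4. A single pair of values made the groups overlap, penk-/- replicate 1 being above penk+/+ replicate 4. The means were 61.7 ± 17.4 and 32.8 ± 12.9 (SD, n = 4), for a log2 fold change of -0.92 ± 0.31 (SE; limma unadjusted p = 0.0161, adjusted p = 0.425; exact permutation p = 0.0571).

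Cxcl5 (ENSMUSG00000029371, chr5:90907186-90909483), an epithelial ligand of the same receptor, was more evenly expressed. It was at 290, 296, 248 and 263 normalized counts in penk+/+ replicates 1 to 4, and at 241, 213, 214 and 149 in penk-/- replicates 1 to 4. The highest penk-/- value was just below the lowest penk+/+ value. The means were 274 ± 22.4 and 204 ± 39.1 (SD, n = 4), for a log2 fold change of -0.44 ± 0.15 (SE; limma unadjusted p = 0.0168, adjusted p = 0.425; exact permutation p = 0.0286, the smallest that 4 against 4 mice allows). Cxcl2, the third gene of the group, was too low for the test, at 3.43 to 11.2 normalized counts in the penk+/+ group and 3.03 to 5.72 in the penk-/- group. Cxcr2 was not analysed here.

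The members of the neutrophil marker list did not move together. S100a8 lay between 0 and 7.995 normalized counts and S100a9 between 1.01 and 13.1. Csf3r was at 37.4 to 76.3 in penk-/- and 29.9 to 73.6 in penk+/+ chimeras. The sum of the list (S100a8, S100a9, Csf3r and Ly6g) was 3159 to 4581 in penk-/- and 4461 to 6473 in penk+/+ chimeras, but Ly6g supplied 3061 to 6438 of it. Ly6g alone was at 3061 to 4543 in penk-/- and 4393 to 6438 in penk+/+ chimeras. Of the 2 genes of the list that were tested, 1 had a limma unadjusted p below 0.05, against 9.63% of all genes. None had an adjusted p below 0.05. The 2 highest S100a9 values, 12.6 and 13.1, were those of penk-/- replicates 2 and 3. The epithelial list summed to 325491 to 458373 in penk-/- and 403019 to 499361 in penk+/+ chimeras. The part of either list in the Cxcl1 and Cxcl5 values was not tested. In bulk tissue, fewer cells of a type and less RNA per cell cannot be told apart.

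Cxcl1, Cxcl5 and the epithelial ligand Ccl20, the 3 ligands with the smallest p-values, are known targets of NF-kB, a transcription factor of inflammatory signalling. Their upstream sequences are shown to let the motif be located in each. The windows reach back 250 bases from the start of the canonical transcript (GRCm39, plus strand, which is the strand of all 3 genes), and the 51 bases of the Cxcl5 window that lie within another annotated transcript are left out. Capitals mark matches to the NF-kB consensus on either strand.

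Cxcl1, chr5:91038844-91039093: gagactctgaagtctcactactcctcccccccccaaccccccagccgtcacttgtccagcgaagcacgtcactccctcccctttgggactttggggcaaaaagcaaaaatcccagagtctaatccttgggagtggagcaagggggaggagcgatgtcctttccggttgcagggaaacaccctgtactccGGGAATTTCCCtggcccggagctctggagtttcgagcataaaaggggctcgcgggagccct

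Cxcl5, chr5:90906987-90907185: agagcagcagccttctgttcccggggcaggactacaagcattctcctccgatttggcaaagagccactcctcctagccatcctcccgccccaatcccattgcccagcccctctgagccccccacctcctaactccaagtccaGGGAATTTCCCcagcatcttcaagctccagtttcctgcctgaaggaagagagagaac

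Ccl20, chr1:83094237-83094486: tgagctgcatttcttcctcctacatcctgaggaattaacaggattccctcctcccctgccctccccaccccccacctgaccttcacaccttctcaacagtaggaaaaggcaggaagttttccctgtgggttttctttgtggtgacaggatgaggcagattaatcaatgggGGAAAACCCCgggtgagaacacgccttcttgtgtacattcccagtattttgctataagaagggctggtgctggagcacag

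The capitals in Cxcl1 and Cxcl5 are the same 11 bases, made of overlapping matches on the plus and minus strands. They lie 61 to 51 bases before the canonical start of Cxcl1 and 108 to 98 bases before that of Cxcl5. The Ccl20 match, on the minus strand, lies 80 to 71 bases before its start. A match to this consensus was found in 4.23% of 21757 promoter windows of the same length, and in 9 of the 48 chemokine and receptor windows, those of Ackr2, Ccl20, Ccl9, Ccr3, Cxcl1, Cxcl10, Cxcl2, Cxcl5 and Cxcr5. The other tested genes with a match had log2 fold changes of 1.11 (Cxcr5), 0.15 (Ccl9), 0.12 (Ackr2) and -0.13 (Cxcl10). A part of NF-kB in any of these differences was not tested. The interferon-stimulated response element, searched on both strands, was in 3.32% of all windows and in those of Cxcl10 and Cxcl14. These are matches of letters only, and factor binding was not measured.

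Interferon-induced ligands, which signal through Cxcr3, gave no common direction. Cxcl9 (ENSMUSG00000029417) was at 11.2, 19.97, 12.3 and 22.3 normalized counts in penk+/+ replicates 1 to 4, and at 11.1, 18.3, 57.4 and 34.3 in penk-/- replicates 1 to 4. Its values in penk-/- replicates 3 and 4 exceeded all others, while those of replicates 1 and 2 did not pass the highest penk+/+ value, and the log2 fold change was 0.65 ± 0.47 (SE; limma unadjusted p = 0.2). Cxcl10 (ENSMUSG00000034855) was at 41.1, 14.3, 28.6 and 60.9 in penk+/+ and at 24.2, 25.2, 39.2 and 29.8 in penk-/- replicates 1 to 4. All penk-/- values of Cxcl10 thus fell inside the penk+/+ range, with a log2 fold change of -0.13 ± 0.40 (SE) that was 0.17 without penk+/+ replicate 4. Cxcl11 was below the filter at 3.31 to 9.199 normalized counts over the 8 mice.

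Among inflammatory CC ligands, 4 fold changes were positive and 4 negative, with a median of -0.03. Ccl2 (ENSMUSG00000035385), the monocyte attractant acting on Ccr2, was at 34.8, 58.0, 69.5 and 79.7 normalized counts in penk+/+ replicates 1 to 4, and at 56.5, 108.8, 92.3 and 95.02 in penk-/- replicates 1 to 4. The 3 highest values were from penk-/- chimeras, and penk-/- replicate 1 lay below every penk+/+ value but replicate 1. The log2 fold change of Ccl2 was 0.56 ± 0.29 (SE), with a limma unadjusted p of 0.084. Its cluster neighbours on chromosome 11 included Ccl11, the eosinophil attractant and the gene of the group with the highest mean count, at 321, 349, 427 and 443 in penk+/+ and 337, 425, 592 and 435 in penk-/- replicates 1 to 4. Ccl11 ranges overlapped widely (log2 fold change 0.20 ± 0.17, SE). Eosinophil markers were low, Epx being at 0 to 3.63 normalized counts.

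Ccl17, a ligand of Ccr4 made by dendritic cells, was at 14.9, 41.8, 31.7 and 15.4 normalized counts in penk+/+ replicates 1 to 4 and at 7.07, 19.5, 11.6 and 19.9 in penk-/- replicates 1 to 4. Only penk+/+ replicates 2 and 3 stood above the penk-/- range (log2 fold change -0.77 ± 0.43, SE; limma unadjusted p = 0.106). Ccl22, the other Ccr4 ligand, had a log2 fold change of -0.35 ± 0.25 (SE). Dendritic cell markers (Flt3, Zbtb46, Itgax and Batf3) summed to 453 to 689 in penk-/- and 365 to 764 in penk+/+ chimeras. The other genes of the group, Ccl7, Ccl8, Ccl12 and Ccl24, had fold changes between -0.45 and 0.31 on the log2 scale.

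**Figure D3:**
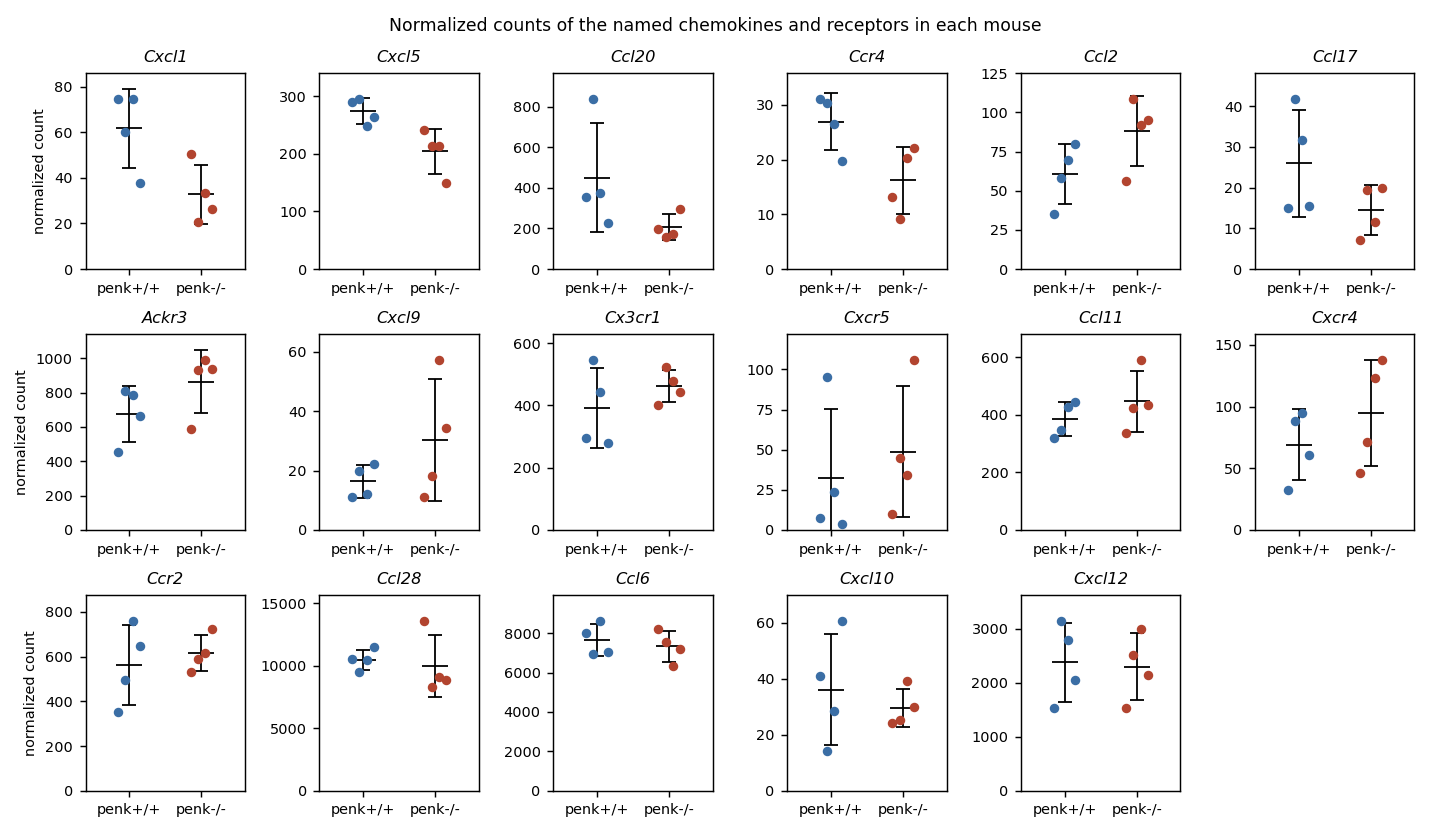
Normalized counts (linear axes from 0) of the 17 genes given mouse by mouse, in penk+/+ (blue) and penk-/- (red) chimeras. Points are single mice in the order of replicates 1 to 4 and black bars are the mean and SD, cut at 0 for Cxcr5. The genotypes separate for Cxcl5 and overlap for the other 16 genes.

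The CC ligands Ccl6 and Ccl9, grouped here as macrophage ligands by their known source, differed little between genotypes. Ccl6 was at 8009, 6952, 8641 and 7030 normalized counts in penk+/+ replicates 1 to 4 and at 8203, 7551, 6353 and 7186 in penk-/- replicates 1 to 4. The log2 fold change of -0.06 ± 0.10 (SE) had a 95% interval from -0.28 to 0.15, one of the narrowest of the family, and was 0.0017 without penk-/- replicate 3. Ccl9 had a log2 fold change of 0.15 ± 0.18 (SE). Macrophage markers (Csf1r, Adgre1, C1qa, C1qb, C1qc, Mrc1 and Cd68) summed to 7159 to 10308 in penk-/- and 5344 to 9624 in penk+/+ chimeras.

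Lymphoid tissue ligands place lymphocytes within follicles and guide them into lymphatics. Cxcl12, the stromal ligand of Cxcr4, was at 1531, 3154, 2787 and 2047 normalized counts in penk+/+ replicates 1 to 4 and at 1541, 2521, 2994 and 2148 in penk-/- replicates 1 to 4. Both genotypes spanned nearly the same range, with replicate 1 lowest in each, and the log2 fold change was -0.04 ± 0.25 (SE). Its sign was positive without penk-/- replicate 1, penk+/+ replicate 2 or penk+/+ replicate 3 (0.14, 0.12 and 0.06). Cxcl13, the follicle-forming ligand of Cxcr5, averaged 264 ± 117 with penk-/- marrow and 265 ± 109 with penk+/+ marrow (SD, n = 4). Ccl21a had a log2 fold change of -0.27 ± 0.17 (SE).

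Barrier ligands held both the steadiest and one of the most variable genes. Ccl20 (ENSMUSG00000026166, chr1:83094487-83096888), the ligand of Ccr6 made by the epithelium over lymphoid follicles, was at 356, 840, 377 and 228 normalized counts in penk+/+ replicates 1 to 4 and at 199, 160, 172 and 298 in penk-/- replicates 1 to 4. Penk-/- replicate 4 exceeded penk+/+ replicate 4, and the other penk-/- values were below all penk+/+ values. The means were 450 ± 268 and 207 ± 62.7 (SD, n = 4), for a log2 fold change of -0.99 ± 0.36 (SE; limma unadjusted p = 0.0209, adjusted p = 0.449; exact permutation p = 0.0571). In each genotype the mouse with most Ccl20 was also the mouse with the highest B cell marker sum, and the part of this in the difference was not tested. Ccr6, its receptor on B cells and other lymphocytes, was below the filter at 2.02 to 14.4 normalized counts.

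Ccl28 was at 10510, 9517, 10446 and 11483 normalized counts in penk+/+ replicates 1 to 4 and at 13617, 8337, 9079 and 8883 in penk-/- replicates 1 to 4. Penk-/- replicate 1 was the highest of all mice, and the other 3 penk-/- values were below all penk+/+ values. The log2 fold change was -0.10 ± 0.14 (SE), and it was -0.26 without penk-/- replicate 1. Cx3cl1 was at 4811 to 6833 in penk+/+ and at 3902 to 5492 in penk-/- chimeras, with a log2 fold change of -0.25 ± 0.14 (SE; limma unadjusted p = 0.101). Ccl25, the ligand of the gut-homing receptor Ccr9, was at 354 to 396 in penk+/+ and 366 to 459 in penk-/- chimeras (0.16 ± 0.10, SE, on the log2 scale). Cxcl14, Cxcl16 and Ccl27a had log2 fold changes of 0.06, -0.03 and 0.21. Exons of Cxcl16 overlap those of Med11 and Zmynd15 on the opposite strand, and those of Ccl25 overlap Elavl1. The library kit kept strand, but whether the counting used it is not given in the sources used here. The effect of these overlaps on the counts, in either direction, is therefore unknown.

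The CC receptors gave fold changes of either sign. Ccr4 (ENSMUSG00000047898, chr9:114319384-114333984), a receptor of regulatory and type 2 helper T lymphocytes, was at 31.1, 30.4, 26.6 and 19.7 normalized counts in penk+/+ replicates 1 to 4 and at 13.1, 9.16, 20.4 and 22.1 in penk-/- replicates 1 to 4. Only penk+/+ replicate 4 fell within the penk-/- range. The means were 27.0 ± 5.22 and 16.2 ± 6.08 (SD, n = 4), for a log2 fold change of -0.76 ± 0.31 (SE; limma unadjusted p = 0.0349, adjusted p = 0.476; exact permutation p = 0.0857). T cell markers (Cd3d, Cd3e, Cd3g, Cd2 and Lck) summed to 131 to 210 in penk-/- and 148 to 257 in penk+/+ chimeras, and their part in the Ccr4 values was not tested.

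Ccr2, the monocyte receptor of Ccl2, was the most abundant gene of the group by count. It was at 352, 494, 761 and 648 normalized counts in penk+/+ replicates 1 to 4 and at 529, 591, 616 and 721 in penk-/- replicates 1 to 4, every penk-/- value lying inside the penk+/+ range. The log2 fold change was 0.17 ± 0.22 (SE), and -0.03 without penk+/+ replicate 1. Ccr1, Ccr7, Ccr9 and Ccr10 had log2 fold changes of -0.09, 0.34, -0.20 and -0.01. Ccr3, Ccr6 and Ccr8 were too low to be tested. Ccr8, found on tissue regulatory T cells, was at 1.01 to 6.63 normalized counts in the penk-/- group and 0 to 1.02 in the penk+/+ group.

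All 4 measured CXC receptors had positive fold changes, with a median of 0.48 on the log2 scale, and none passed the test even before adjustment. Cxcr5 (ENSMUSG00000047880, chr9:44423083-44473174), the follicle-homing receptor of B cells, was at 7.47, 95.1, 23.5 and 3.43 normalized counts in penk+/+ replicates 1 to 4 and at 10.1, 44.6, 34.2 and 106 in penk-/- replicates 1 to 4. It varied 30.9-fold over the mice, the most of any tested chemokine gene, and its highest values came from 1 mouse of each genotype. The log2 fold change was 1.11 ± 0.96 (SE), with a 95% interval from -1.04 to 3.26. It was 0.45 without penk+/+ replicate 4, 0.60 without penk-/- replicate 4, 1.69 without penk-/- replicate 1 and 1.93 without penk+/+ replicate 2. Cxcr4, the Cxcl12 receptor, was at 32.4, 88.4, 95.1 and 60.9 in penk+/+ and at 46.5, 71.0, 122.8 and 138.1 in penk-/- replicates 1 to 4 (0.43 ± 0.42, SE, on the log2 scale). In both genotypes replicate 1 had the lowest Cxcr4. Cxcr3, the receptor of Cxcl9 and Cxcl10, had a log2 fold change of 0.52 ± 0.41 (SE), and Cxcr6, the receptor of Cxcl16, one of 0.19 ± 0.30 (SE). B cell marker sums overlapped between genotypes, at 215 to 1124 in penk-/- and 176 to 1037 in penk+/+ chimeras.

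The remaining receptors also overlapped between genotypes. Cx3cr1, which marks resident intestinal macrophages, was at 295, 547, 444 and 280 normalized counts in penk+/+ replicates 1 to 4 and at 402, 523, 477 and 442 in penk-/- replicates 1 to 4. All penk-/- values lay within the wider penk+/+ range (log2 fold change 0.29 ± 0.21, SE). Xcr1, a receptor of cross-presenting dendritic cells, had a log2 fold change of 0.02 ± 0.35 (SE).

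Of the atypical receptors, Ackr3 had the highest mean count. It was at 453, 808, 784 and 664 normalized counts in penk+/+ replicates 1 to 4 and at 590, 932, 992 and 937 in penk-/- replicates 1 to 4. The values of penk-/- replicates 2, 3 and 4 were above all penk+/+ values and that of replicate 1 was not, giving a log2 fold change of 0.36 ± 0.21 (SE; limma unadjusted p = 0.13). Without penk-/- replicate 1 this was 0.53, past the unadjusted threshold but not the adjusted one, and without penk+/+ replicate 1 it was 0.17. Ackr1, the venular receptor, Ackr2, the scavenger of inflammatory CC ligands, and Ackr4, the scavenger of Ccl21a and Ccl25, had log2 fold changes of 0.03, 0.12 and -0.05. Exons of Ackr4 overlap Acad11 on the opposite strand.

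Mice of the same genotype differed from each other. The within-genotype coefficient of variation had a median of 25.4% over the tested genes. Of the 41 genes, 13 were lowest in penk+/+ replicate 1 and 10 in penk-/- replicate 1, whereas 17.2% and 11.6% of all tested genes were lowest in these mice. The same mice had the lowest sums of mesenchymal markers (19683 and 23594, against 27690 to 37882 in the others) and of endothelial markers (2981 and 3448, against 3950 to 4961). Of the same 41 genes, 13 were highest in penk+/+ replicate 2, and these included genes counted above as lowest in a replicate 1, such as Cxcl12. The share of all tested genes that were highest in this mouse was not computed.

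**Figure D4:**
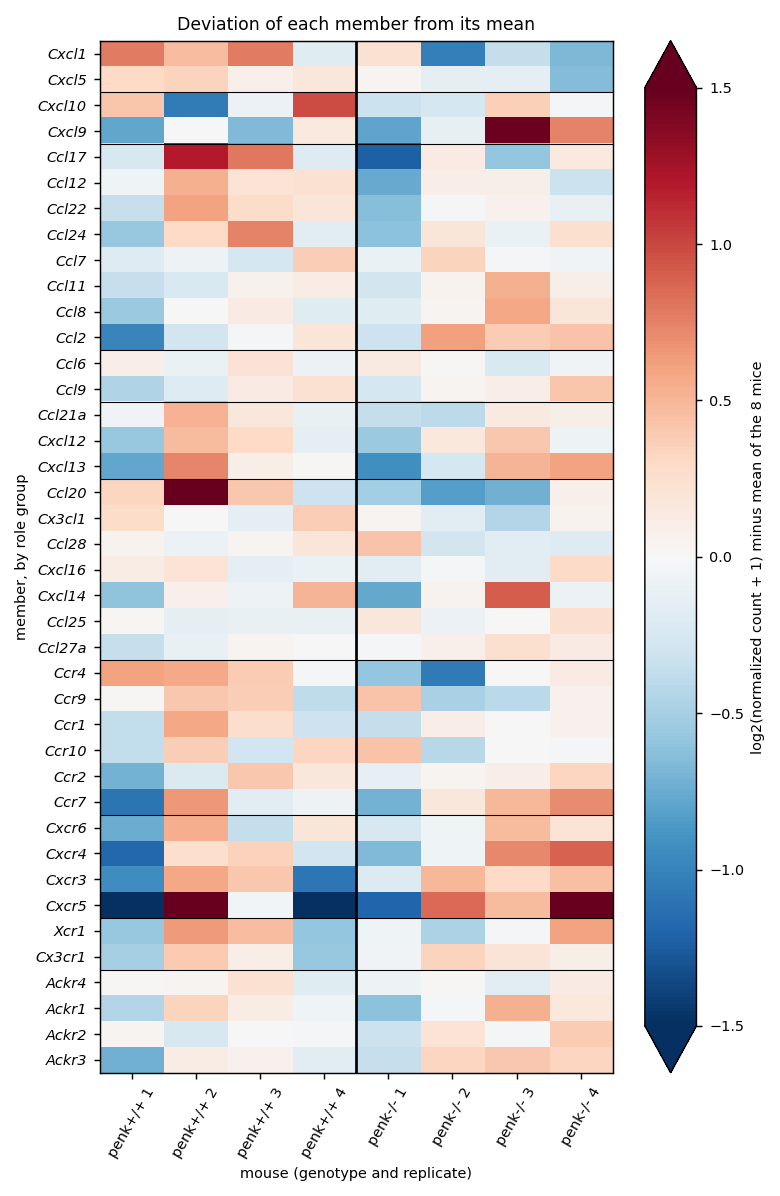
Deviation of 40 tested genes from their means over the 8 mice, in log2(normalized count + 1), with genes in rows by role group and mice in columns (penk+/+ left, penk-/- right). Replicate 1 of both genotypes is below the mean for many ligands and receptors, and Cxcr5 shows the widest deviations.

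Genes were compared across mice with marker lists of cells known to express them. Of 23 gene and marker list relations computed over the 8 mice, 7 had an adjusted exact permutation p below 0.05. Ackr3 varied with mesenchymal markers (Col1a1, Col1a2, Pdgfra and Dcn) at Pearson r = 0.984 and Spearman rho = 0.952 (exact permutation p = 9.92e-05 and 0.00114, adjusted p = 0.00228 and 0.0262), and Cxcr5 with B cell markers at r = 0.952 and rho = 0.881 (exact permutation p = 0.00057 and 0.00724, adjusted p = 0.00437 and 0.0416). Without the 2 mice farthest from the median of the marker score, these correlations were r = 0.924 and 0.927, and rho = 0.886 and 0.714. The mice left out were thus chosen for each list. The Cxcr5 points formed separate clumps, with the 2 mice rich in B cell markers at one end.

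Ccl8, a monocyte attractant, varied with macrophage markers (r = 0.894, rho = 0.905, exact permutation p = 0.000397 and 0.00456, adjusted p = 0.00437 and 0.035) and Cx3cr1 did so as well (r = 0.849, rho = 0.69, exact permutation p = 0.0092 and 0.0694, adjusted p = 0.0302 and 0.133). Without the 2 farthest mice r was 0.75 and 0.593. Cx3cl1 varied with epithelial markers (r = 0.895, rho = 0.833, exact permutation p = 0.00273 and 0.0154, adjusted p = 0.0157 and 0.0707), with r = 0.705 and rho = 0.6 without the 2 farthest mice. Cxcl12 varied with mesenchymal markers (r = 0.864, rho = 0.69, exact permutation p = 0.00538 and 0.0694, adjusted p = 0.0242 and 0.133) and Ackr1 with endothelial markers (r = 0.861, rho = 0.905, exact permutation p = 0.00632 and 0.00456, adjusted p = 0.0242 and 0.035), with r = 0.565 and 0.793 without them. With 6 mice no adjusted p was below 0.05, in a smaller design that has fewer pairings to draw on. The macrophage, mesenchymal and endothelial scores were themselves alike from mouse to mouse, at -0.63, -0.57 and -0.47 in penk+/+ replicate 1 and at 0.29, 0.29 and 0.32 in penk-/- replicate 3, so a relation with one of these lists cannot be told apart from a relation with the others. On the deviations from each genotype's mean, 7 of the 23 relations again had an adjusted p below 0.05. The p-values on deviations are approximate, since deviations centred within each genotype were permuted over all mice. For Ccl6 and macrophage markers, r was -0.374 and rho -0.333 (exact permutation p = 0.37 and 0.428, adjusted p = 0.473 and 0.518).

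**Figure D5:**
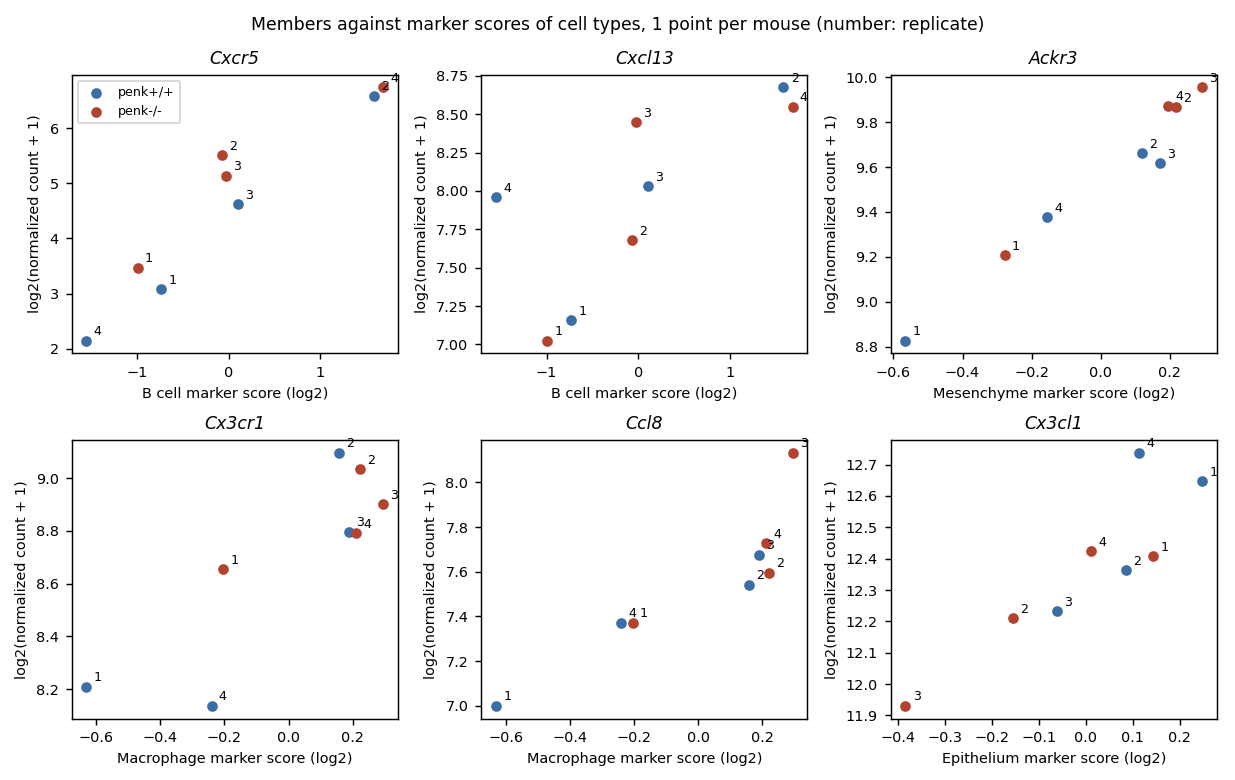
Log2(normalized count + 1) of 6 genes against the marker score of a cell type (mean centred log2 level of its markers) in each of 8 mice, numbered by replicate and coloured by genotype. Ackr3 lies close to a line with mesenchymal markers (r = 0.984) and Cxcr5 splits by B cell score into low, middle and high mice, with both genotypes in each.

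Ligands and their receptors were also compared across mice. None of the 12 pairs had an adjusted exact permutation p below 0.05. The largest coefficients were those of Cxcl12 and Ackr3 (r = 0.80, rho = 0.714, exact permutation p = 0.0169 and 0.0576, adjusted p = 0.0758 and 0.167), Ccl2 and Ccr2 (r = 0.794, rho = 0.571, exact permutation p = 0.0207 and 0.151, adjusted p = 0.0758 and 0.293) and Cx3cl1 and Cx3cr1 (r = -0.784, rho = -0.81, exact permutation p = 0.0207 and 0.0218, adjusted p = 0.0758 and 0.167). Without the 2 mice farthest from the median of the ligand, r was 0.332, 0.655 and -0.82, and rho 0.314, 0.543 and -0.771. The Cx3cl1 and Cx3cr1 values tended to run in opposite directions across mice, without passing adjustment. Cx3cl1 varied with epithelial markers (r = 0.895) and Cx3cr1 with macrophage markers (r = 0.849). The part of these lists in the pair was not tested. On the deviations from each genotype's mean, Cxcl12 and Ackr3 had r = 0.944 and rho = 0.952 (permutation p = 0.000248 and 0.00114, adjusted p = 0.00298 and 0.0137). These p-values are approximate, since deviations centred within each genotype were permuted over all mice. On the same deviations, Cxcl12 and Ackr3 each varied with mesenchymal markers (r = 0.954 and 0.989). A relation between the 2 genes therefore cannot be told apart from a relation of each with those markers.

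Most chemokine genes lie in clusters, which formed by gene duplication and can be read as neighbourhoods. On chromosome 11, Ccl2, Ccl7, Ccl11, Ccl12 and Ccl8 lie within 81.2 kb, and 4 of these 5 had positive fold changes (median 0.20), Ccl12 being the exception at -0.45. On chromosome 5, Cxcl5, Cxcl1 and Cxcl2 span 146.6 kb, and both tested genes had negative fold changes (median -0.68). Ccl22, Cx3cl1 and Ccl17, within 67.4 kb of chromosome 8, had 3 negative fold changes (median -0.35), although Cx3cl1 is epithelial and its neighbours are dendritic cell ligands. Other clusters were mixed. The largest, 8 receptor and receptor-like genes within 440.6 kb of chromosome 9, had 4 positive and 2 negative fold changes (median 0.07). The clusters of Cxcl9, Cxcl10 and Cxcl11 and of Ccl9, Ccl6 and Ccl4 each had 1 positive and 1 negative. The genes on the chromosome of Penk, Ccl27a and Ccl21a, lie 37.6 and 38.6 Mb from it on chromosome 4 and had log2 fold changes of 0.21 and -0.27.

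Genes that act with chemokine receptors were examined in the same fit. Of 29 such genes, covering G protein subunits, receptor kinases, arrestins, regulators of G protein signalling, migration effectors, homing molecules and other chemoattractants, 26 were tested and none had an adjusted p below 0.05. At an unadjusted p below 0.05, 3 were higher in penk-/- chimeras, a direction and threshold met by 4.3% of all genes. Rgs1, a brake on chemokine receptor signalling in lymphocytes, was at 617, 645, 1050 and 707 normalized counts in penk+/+ replicates 1 to 4 and at 816, 1155, 1688 and 1222 in penk-/- replicates 1 to 4 (log2 fold change 0.68 ± 0.23, SE; limma unadjusted p = 0.0144). Only penk+/+ replicate 3 overlapped the penk-/- range. Grk5, a receptor kinase, had a log2 fold change of 0.28 ± 0.09 (SE) and Pf4, the platelet chemokine Cxcl4, one of 0.42 ± 0.15 (SE), with limma unadjusted p-values of 0.0108 and 0.0177. The genotypes did not overlap for Pf4, at 338.1 to 413.6 in penk-/- and 214.1 to 327.1 in penk+/+ chimeras. Nor did they for Ccrl2, at 85.04 to 101.9 and 102.1 to 133.8 in the same order. Groups did not overlap for 5.63% of all genes. Fold changes were positive for 19 and negative for 7 of the 26 genes, with a median of 0.07, and positive for 9780 and negative for 9347 of all genes tested.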

How the data were processed

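Colonic RNA libraries were sequenced from 8 chimeric mice, 1 library per mouse. The authors used STAR 2.7.8a for alignment and counting against GRCm39 (Ensembl release 107) and DESeq2 1.30.0 for scaling. The deposited signal is therefore a normalized count per gene and library, with no further transformation. Every deposited value was a whole multiple of its library's smallest step (tolerance 1e-06 steps), and these multiples summed to about 33122600 to 50677000 reads per library. Symbols were taken from GENCODE M39. They matched 25776 of 26008 rows.

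Genotypes were compared with limma (version 3.58.1, moderated test with a mean-variance trend, two-sided) on log2(normalized count + 1). Genes averaging 10 or more normalized counts were tested, and p-values were adjusted over all of them by the Benjamini-Hochberg method. Fold changes on this scale understate those of low genes. Single genes were also compared by an exact permutation test. The procedure was tested on simulated data. Correlations across mice used log2(normalized count + 1), and a marker score is the mean of a list's genes on that scale after subtracting each gene's mean. Levels between genes were divided by the length of the canonical transcript. The mice are separate animals, with no sequencing batch in the labels. Counting error alone was not separated from mouse-to-mouse spread. The smallest chi-square between 2 libraries was 11.2 per degree of freedom, so no library was taken for a copy of another.

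The value in every mouse is given for genes with an unadjusted p below 0.05, genes without overlap of the genotypes, Cxcl1, Cxcl9, Cxcl10 and Ccl2, the gene with the highest mean count in each role group, and the 3 largest differences in each direction. Ccr8, Cx3cl1, Cxcl13 and Ccl25 are given in addition, having been chosen after their values were seen. Counts cover all genes of the rule, but 1 receptor gene among them is not reported here by name or in the figures, nor is 1 B cell marker, which was left out of its list. The genes and lists were chosen with earlier results of these data known. Alternatives were other pseudocounts, filters and normalization, no trend, a replicate block, and fits leaving out 1 or 2 libraries.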

Additional observations from a re-analysis of the deposited data

Results flagged for a closer look

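In 4 of 82 groups of 4 mice (41 genes in 2 genotypes), 1 mouse stood apart from the others of its genotype, by the size of its gap to the nearest mouse as a share of the group's range (Dixon's test at 95%). Chance flags about 1 group in 20, or 4.1 of 82. Ackr3 was at 590 normalized counts in penk-/- replicate 1 against 932 to 992 in the other penk-/- chimeras (0.85 of the range). Ccl28 was at 13617 in the same mouse against 8337 to 9079 (0.86). Ccl25 was at 396 in penk+/+ replicate 1 against 354 to 359 in the other penk+/+ chimeras (0.868). Ccl7 was at 90.4 in penk-/- replicate 2 against 66.6 to 70.5 (0.838).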

How the results depend on the processing

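No chemokine or receptor gene had an adjusted p below 0.05 under any of the alternatives run (smallest limma adjusted p 0.146, with the replicate block). Cxcl1 and Cxcl5 had an unadjusted p below 0.05 under every alternative run in which they were tested. Of 283 log2 fold changes of the 17 genes given mouse by mouse, 275 kept their sign. The 8 exceptions were Ccl6 without penk-/- replicate 3 (0.0017), Ccr2 without penk+/+ replicate 1 (-0.0335), Cxcl10 without penk+/+ replicate 4 (0.1729) and without the 2 libraries rich in accessory gland genes (0.0331), and Cxcl12 with voom weights (0.0273) and without penk-/- replicate 1 (0.1436), penk+/+ replicate 2 (0.1185) or penk+/+ replicate 3 (0.059), the cause of which was not tested. Leaving out 1 mouse moved these from -0.1212 to 0.0017 for Ccl6, -0.0335 to 0.3366 for Ccr2, -0.5002 to 0.1729 for Cxcl10 and -0.229 to 0.1436 for Cxcl12. Over all genes, 1 had an adjusted p below 0.05 with quantile normalization, 1 with the replicate block and 0 to 6 when leaving out 1 mouse (6 without penk-/- replicate 1). Among chemokine genes, the count at an unadjusted p below 0.05 (4) was 2 with a minimum mean of 50, which tests fewer genes, and 2 to 7 when leaving out 1 mouse, while that of all genes (1842) was 1584 and 1379 to 2223. Ccr4 was not among them with the replicate block or without penk-/- replicate 1 or 2 or penk+/+ replicate 1, 2 or 3, nor Ccl20 without penk-/- replicate 2. The count without overlap (1) was 1 to 6 when leaving out 1 mouse and 4 without the 2 accessory gland libraries, where fewer values have to be separated. It was 6 without penk-/- replicate 1, 2 without penk-/- replicate 4, and 4 without penk+/+ replicate 1 or 4. The share of all genes without overlap, 5.63% with 8 mice, was 12.0%, 7.83%, 8.43% and 11.2% in these 4 cases and 15.3% without the accessory gland libraries. Of the relations with marker lists, 0 kept an adjusted p below 0.05 without the 2 farthest mice and 0 without the accessory gland libraries. Both use 6 mice, and without those libraries r was 0.981 for Ackr3, 0.975 for Ccl8, 0.942 for Cxcr5 and 0.913 for Cx3cl1. Of the ligand and receptor pairs 1 had one on deviations from the genotype means, where p-values are approximate.

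Deviations of mice with the same replicate number correlated at 0.145, -0.044, -0.321 and -0.162. Mice with different numbers were not compared in this way, so whether the numbers pair the mice was not tested. With the replicate block, 2938 of all genes (1842 without it) and 8 chemokine genes had an unadjusted p below 0.05, and these were Ackr3, Ccl12, Ccl2, Ccl20, Ccl8, Cx3cl1, Cxcl1 and Cxcl5.

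The planned edgeR and DESeq2 tests were not run. The voom fit and the fit without the accessory gland libraries were added after seeing the data. The latter left out only the 2 libraries richest in accessory gland genes, and others that held such RNA stayed in. With 4 mice per genotype, the interval of Cxcr5 allows large differences in either direction.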

Other observations

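Genes of the families above 0 in fewer than 6 libraries were described only by their values. Ccl19, a Ccr7 ligand of lymphoid stroma, was at 15.5 normalized counts in penk-/- replicate 4 and 15.2 in penk+/+ replicate 2, the mice with the highest B cell marker sums, at 5.81 in penk-/- replicate 3 and 2.04 in penk+/+ replicate 3, and was listed at 0 in the other 4 mice. Follicular dendritic cell markers Cr2 and Fcer2a summed to 604 and 605 in the first 2 of these mice, against 22.3 to 227 in the other 6. Ccl1, a ligand of Ccr8, was at 7.995 in penk-/- replicate 3 and at or below 1.14 in the other 7 mice.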
